A study of Arabidopsis thaliana with 6 samples.

Results

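Molecular chaperones of the HSP70 and HSP90 classes fold other proteins in cycles of ATP binding and hydrolysis, and they depend on co-chaperones that load clients, exchange nucleotides or pass a client from one chaperone to the next. The set described here holds 10 genes of this machinery: the Fes1 and Hop families, the TPR immunophilins ROF1 and ROF2, BAG6, and the disaggregase HSP101, which is a partner of HSP70 rather than a co-chaperone in the strict sense. In Arabidopsis some of these genes are strongly induced by heat through heat shock factors, while close relatives are transcribed at a steady level, and several heat shock genes are also known to respond to low oxygen. Fes1A and Hop3 were placed in the set because they were higher in 35S:PCO1 in these data, and the other 8 because they are related to them by role. Of the 10 members 7 have a one-gene probe set, out of 13286 loci that have one, and each of the 7 has a single such probe set. BAG6 (AT2G46240), ROF1 (AT3G25230) and HSP101 (AT1G74310) have none in the probe annotation used here and were not analysed here.

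The arrays compare 2 genotypes of Arabidopsis thaliana, wild type and 35S:PCO1, with 3 arrays each. In 35S:PCO1 the cauliflower mosaic virus 35S promoter, which is active in most plant tissues, drives PCO1, a plant cysteine oxidase that uses oxygen to mark group VII ethylene response factors for degradation; the sample descriptions abbreviate the line as CDO1, and the labels do not say how many independent lines were used. Plants of both genotypes grew in soil in days of 8 h light and 16 h dark at 22 °C by day and 18 °C by night, and both were then held for 4 h in darkness at 5% oxygen. No plants in normal air and no heat-treated plants are analysed here, so every value below is a level under hypoxia or a difference between genotypes, and none is an induction. The labels give the age as 4 weeks in one place and 5 weeks in another, and the tissue as the rosette in one place and the whole plant in another.

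Signals are the authors' RMA values on the log2 scale, where 1 unit is a doubling, and they ran from 2.73 to 13.8 over the whole array. RMA compresses differences near the lower end, and levels of different probe sets cannot be set against each other, so each gene is compared only with itself. The 4 matched leaf markers were bright in every sample, with a mean per array of 12.876 to 12.884 in wild type and 12.763 to 12.829 in 35S:PCO1, and the 4 matched root markers had a mean of 5.580 to 5.679 in wild type and 5.526 to 5.575 in 35S:PCO1. Both marker means were therefore slightly lower on every 35S:PCO1 array, none of the 8 genes was called, and the part of this in the results was not tested. Correlations between arrays across probe sets lay between 0.994 and 0.999. On the first principal component wild type replicate 2 stood apart, with a score of -18.8 where the others lay between -6.13 and 11.6, and it had the highest log2 difference of 3 prime over 5 prime signal for GAPDH (0.813, against at most 0.435 elsewhere). The genotypes did not overlap on the first component: wild type ran from -18.8 to -0.956 and 35S:PCO1 from 5.80 to 11.6. On the second component it was wild type replicate 3 that lay apart, at 17.4 against a range of -11.0 to 4.56 for the others, and the components held 34.1% and 30.6% of the variance. Nothing in the labels ties the replicates to separate plants, so each p-value rests on the spread between these arrays alone, part of which may be technical. PCO1 has no probe set in the annotation used here, so the transgene gave no check of the labels.

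Fes1A (AT3G09350) is the heat-inducible member of a family of armadillo-repeat proteins that release ADP from cytosolic HSP70, and in Arabidopsis it is needed for acquired thermotolerance. Its log2 signal in wild type was 6.54, 6.33 and 6.41 in replicates 1, 2 and 3, and in 35S:PCO1 it was 7.49, 7.86 and 7.33. The lowest 35S:PCO1 array lay well above the highest wild-type array. The means were 6.42 ± 0.11 (SD, n = 3) and 7.56 ± 0.27 (SD, n = 3), a log2 change of 1.14 (SE 0.13) or 2.20-fold, which was rank 5 among the increases of all tested probe sets. This difference is the one that placed Fes1A in the set, so it is given as a description and without a p-value. The log2 change was 1.09 without wild type replicate 2 and 1.13 without wild type replicate 3, the arrays that stood apart, and Fes1A was still called in both fits. Such fits reuse the values that chose Fes1A, so a kept call supports nothing further. The call of Fes1A was lost without wild type replicate 1 and without 35S:PCO1 replicate 1, where its log2 change was 1.20 and 1.17. In those fits limma called 23 and 24 of all probe sets, in place of 60. The other fits with 1 array left out called between 33 and 60. In RNA from a whole rosette or a whole plant, more cells expressing a gene and more RNA per cell cannot be told apart.

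The 2 relatives of Fes1A were not called. Fes1B (AT3G53800), which belongs to the same family and is transcribed without heat, had log2 signals of 8.56, 8.56 and 8.59 in wild type and 8.64, 8.72 and 8.58 in 35S:PCO1. The groups overlap by the third 35S:PCO1 array, and the log2 change of 0.077 (SE 0.060, 95% interval -0.060 to 0.21) was not called (limma adjusted p = 0.72). A call here means an adjusted p under 0.05 in one limma fit over the 22746 tested probe sets, with Benjamini-Hochberg adjustment over all of them. Fes1C (AT5G02150) had log2 signals of 8.72, 8.64 and 8.77 in wild type and 8.42, 8.72 and 8.46 in 35S:PCO1. Here 35S:PCO1 replicates 1 and 3 lay below every wild-type array, while replicate 2 lay among them. The log2 change of Fes1C was -0.18 (SE 0.087, 95% interval -0.37 to 0.020), the largest decrease among the 7 measured members, and it too was not called by limma (adjusted p = 0.53). Leaving out 35S:PCO1 replicate 2 gave -0.27 and leaving out replicate 1 of that genotype gave -0.12, with no call in either fit.

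Hop3 (AT4G12400) is the heat-inducible member of the Hop family, TPR proteins that hold HSP70 and HSP90 together while a client passes between them. Its log2 signal was 3.22, 3.32 and 3.30 in wild type and 4.14, 4.42 and 3.86 in 35S:PCO1. All 35S:PCO1 arrays were above all wild-type arrays, and the wild-type arrays lay within 0.10 of each other and not far above the lowest values of the array. The means were 3.28 ± 0.055 (SD, n = 3) and 4.14 ± 0.28 (SD, n = 3), a log2 change of 0.86 (SE 0.12) or 1.82-fold, rank 11 among all increases, and the compression at low signal means that this fold may understate the difference. As for Fes1A, this value chose the gene and carries no test. The log2 change was 0.88 without wild type replicate 2 and 0.87 without wild type replicate 3, but the call of Hop3 was lost in both fits. The call was also lost without wild type replicate 1 and without 35S:PCO1 replicate 1, where the log2 change was 0.83 and 0.86.

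The constitutive Hop genes differed between the genotypes by less than the spread between arrays. Hop1 (AT1G12270) had log2 signals of 6.54, 6.79 and 6.63 in wild type and 6.75, 6.57 and 6.62 in 35S:PCO1. These values interleave, and the log2 change was -0.0086 (SE 0.081, 95% interval -0.19 to 0.18, limma adjusted p = 0.98). Hop2 (AT1G62740) had log2 signals of 7.28, 7.69 and 7.41 in wild type and 7.54, 7.46 and 7.54 in 35S:PCO1. Its highest and its lowest value were both in wild type, and the log2 change was 0.053 (SE 0.099, 95% interval -0.17 to 0.28, limma adjusted p = 0.90). Without wild type replicate 2, the array on which both genes were highest in wild type, the log2 change was 0.057 for Hop1 and 0.17 for Hop2, and neither was called. Leaving out wild type replicate 3 instead gave -0.019 for Hop1 and 0.028 for Hop2.

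**Figure D1:**
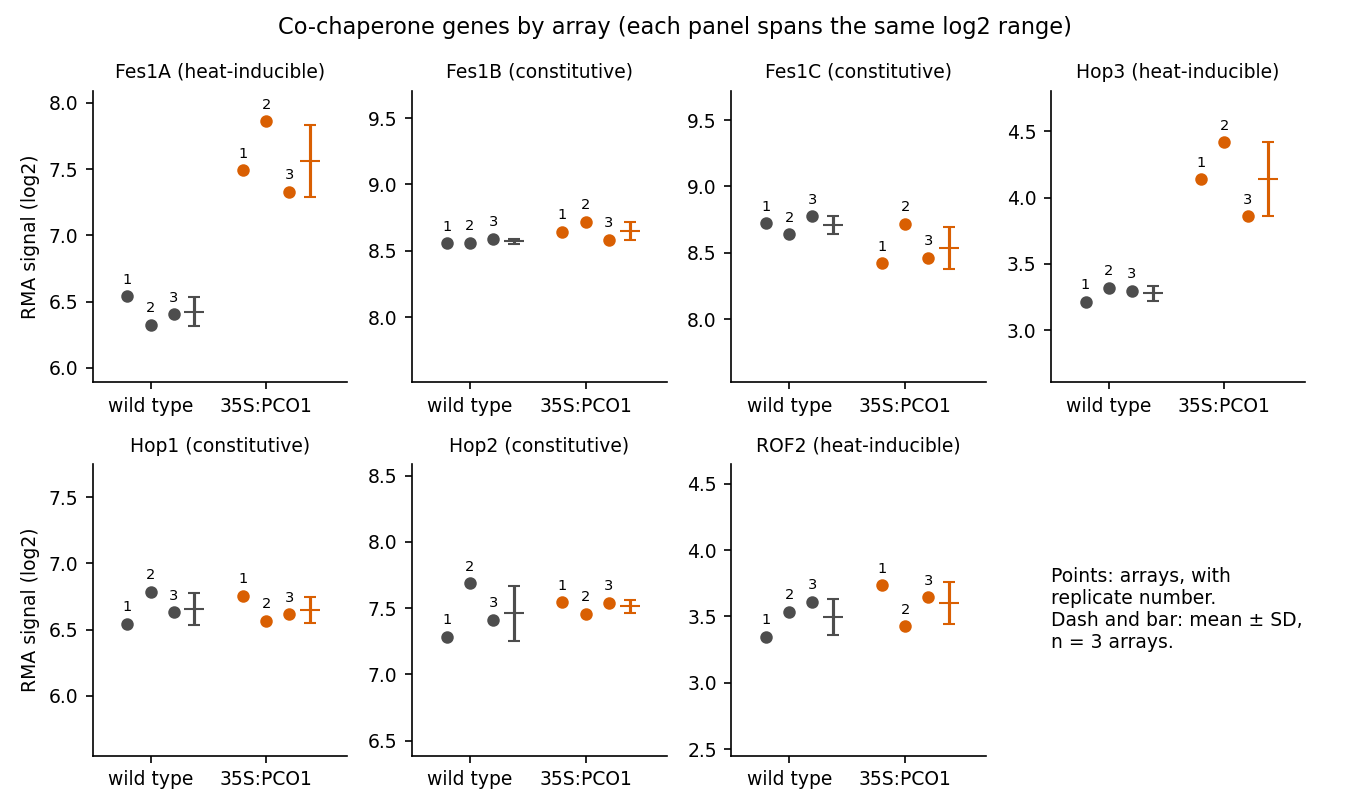
RMA signal on the log2 scale of the 7 measured co-chaperone genes on every array, with the replicate number above each point and the mean ± SD of 3 arrays beside the points. The groups separate for Fes1A (6.33 to 6.54 against 7.33 to 7.86) and Hop3 (3.22 to 3.32 against 3.86 to 4.42) and overlap for the other 5 genes.

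ROF2 (AT5G48570, also FKBP65) is a peptidyl-prolyl isomerase with TPR repeats that associates with HSP90, and it is strongly induced by heat. It is the one heat-inducible member measured here that was not chosen for its value. Its log2 signal was 3.35, 3.53 and 3.61 in wild type and 3.73, 3.43 and 3.65 in 35S:PCO1. The groups overlapped, both at dim signal. The log2 change of 0.11 (SE 0.097, 95% interval -0.12 to 0.33) was not called by limma (adjusted p = 0.77). With 1 array left out the log2 change ran from 0.031, without wild type replicate 1, to 0.19, without 35S:PCO1 replicate 2; it was 0.039 when 35S:PCO1 replicate 1 was left out, and ROF2 was called in none of these fits. A compressed scale limits what a dim probe set can show.

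Set side by side, the heat-inducible and the constitutive members differed as follows. Of 6 heat-inducible members 3 were measured, with log2 changes from 0.11 to 1.14 and a median of 0.86; the median is that of the chosen gene Hop3 and supports nothing by itself. All 4 constitutive members were measured, with log2 changes from -0.18 to 0.077 and a median of 0.022, beside a median of -0.012 over all tested probe sets. In 2 of the 7 measured members, the chosen pair, the groups did not overlap, and the same held for 16.2% of all tested probe sets, or 5.68% with 35S:PCO1 higher. Of the 22746 tested probe sets limma called 16 or 0.0703% higher and 44 or 0.193% lower at an adjusted p under 0.05. Fes1A and Hop3 are among those called higher, but the rule took them for being higher in 35S:PCO1, so nothing is read from their count. None of the 5 members that were not chosen by value was called in either direction, and none had an unadjusted p under 0.05, where 10.4% of all tested probe sets did. Of the chosen pair Hop3 had the lower log2 change, 0.86, and the next highest member, ROF2, had 0.11 and was not chosen by value. At an adjusted p under 0.01 in place of 0.05, 1 of the 7 members, Fes1A, was called, so the call of Hop3 depends on the threshold.

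**Figure D2:**
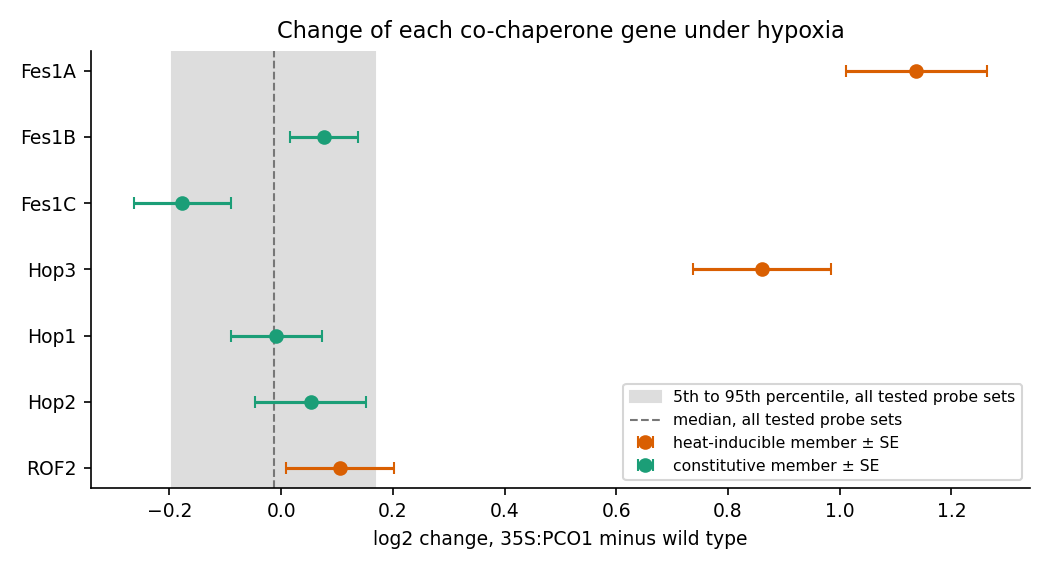
Log2 change of each measured member, 35S:PCO1 minus wild type, as a point with its standard error, coloured by heat-inducible or constitutive class. The grey band holds the middle of all tested probe sets, from the 5th percentile at -0.19 to the 95th at 0.17; Fes1A and Hop3 lie to its right, and the other 5 points lie inside it.

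Differences within a family take out whatever an array adds to all members of that family. With each gene set to its own wild-type mean, Fes1A minus the mean of Fes1B and Fes1C was 1.18, 1.36 and 1.02 in 35S:PCO1 replicates 1, 2 and 3, and in wild type it had an SD of 0.10. Hop3 minus the mean of Hop1 and Hop2 was 0.77, 1.19 and 0.56 in the same arrays, with a wild-type SD of 0.12. These differences restate the values that chose Fes1A and Hop3 and support nothing further, so no test of them is given.

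Fes1A and Hop3 also shared their order among the 35S:PCO1 arrays. Both were highest in replicate 2, next in replicate 1 and lowest in replicate 3, with a range of 0.53 for Fes1A and 0.56 for Hop3. In wild type the orders differed: replicate 1 was highest for Fes1A and lowest for Hop3. Over the 6 arrays the Pearson correlation of the pair was 0.98, most of which is the difference between genotypes that both were chosen for, and after subtraction of each group's mean it was 0.82 over the same 6 arrays. Both are descriptions of 6 points, and the subtraction leaves fewer free values than arrays. The 35S:PCO1 arrays weigh most in the second value, since the wild-type ranges were only 0.21 for Fes1A and 0.10 for Hop3.

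**Figure D3:**
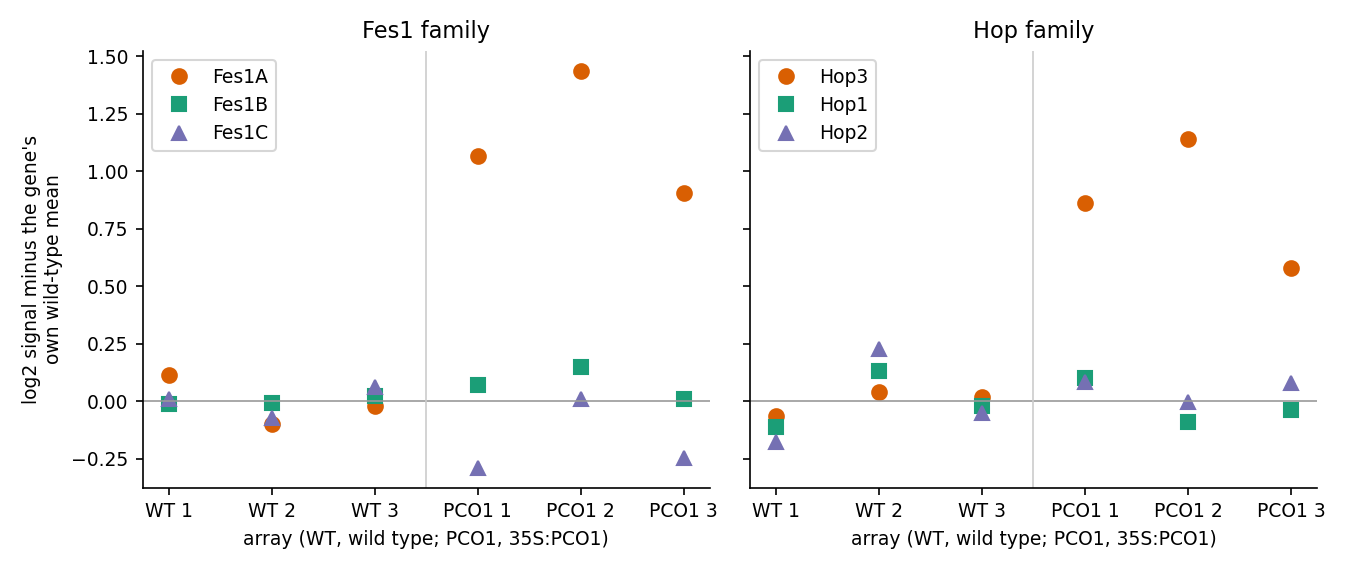
Log2 signal of each Fes1 gene (left) and each Hop gene (right) minus that gene's own wild-type mean, by array. Fes1A and Hop3 are raised on every 35S:PCO1 array and most on replicate 2, while Fes1B, Fes1C, Hop1 and Hop2 stay near 0 or, for Fes1C on replicates 1 and 3, below it.

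The genes whose values over the 6 arrays were most like those of the pair were looked for among 835 other named loci whose signal ranged over at least 0.5 on the log2 scale. For Fes1A the highest Pearson correlations were with Hop3 (0.98), AT1G02660 (0.98) and AT1G07050 (0.97). For Hop3 they were with AT1G02660 (0.98), Fes1A (0.98) and AT4G16240 (0.97). AT1G02660 thus stood in both lists; its wild-type mean was 6.86 ± 0.067 (SD, n = 3), its 35S:PCO1 mean was 7.24 ± 0.12 (SD, n = 3), and its log2 change of 0.39 (SE 0.076) was not called by limma (adjusted p = 0.13). AT1G07050, a gene with a CCT motif, had a log2 change of 0.68 (SE 0.057, limma adjusted p = 0.0014). AT4G16240 had a log2 change of 0.34 (SE 0.072, limma adjusted p = 0.16), on a probe set whose name marks it as one that may bind other transcripts. All of these loci were picked for following the pair over the same arrays, mostly through the difference between genotypes. Their higher signal in 35S:PCO1 was thus largely fixed beforehand, and their p-values support nothing further. Only 2 of the 36 measured chaperone list genes described below had the range needed to enter this search, so the absence of others was largely fixed beforehand.

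The genes beside the pair on the chromosome were compared next. Of the protein-coding genes within 2 places of Fes1A or Hop3, 2 have a probe set: AT3G09360 beside Fes1A had a log2 change of -0.041 (SE 0.059), and SKU5 near Hop3 had 0.12 (SE 0.068). Neither was called by limma (adjusted p = 0.87 and 0.60). Around all 7 measured members 12 such neighbours have a probe set, with log2 changes from -0.15 to 0.12 and none called. The comparison uses the order of genes only.

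The measured genes of the chaperones that these co-chaperones serve, and of the wider heat shock response, showed no called difference between the genotypes. Of 130 genes on 10 lists of chaperones and heat-response genes, 36 have a one-gene probe set. Of these 36 limma called 0 higher and 0 lower. Over all tested probe sets it called 0.0703% higher and 0.193% lower, so 0 calls among 36 genes say little. At an unadjusted p under 0.05 there were 3 of 36, beside 10.4% of all tested probe sets, and in 3 of 36 the groups did not overlap, beside 16.2%. Log2 changes over the 36 genes ran from -0.22 to 0.31 with a median of -0.0045. No member of the HSP90 family (7 listed) and no heat shock factor (21 listed) has a probe set in the annotation used here, so the transcription factors of the response and one of its main chaperones were not analysed here.

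In the HSP70 family 4 of 18 genes were measured, with log2 changes from 0.0056 to 0.16. Hsp70-2 (AT5G02490), a cytosolic HSP70, had log2 signals of 6.37, 6.37 and 6.29 in wild type and 6.56, 6.48 and 6.47 in 35S:PCO1. Its groups did not overlap, but the change of 0.16 (SE 0.060) was not called by limma (adjusted p = 0.40). AT3G09440, another cytosolic HSP70, had a log2 change of 0.036 (SE 0.13, limma adjusted p = 0.95).

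J-domain proteins stimulate the ATPase of HSP70 and so act at the opposite step to Fes1A. Of 14 listed 10 were measured, with log2 changes from -0.13 to 0.017, of which 2 were positive. Their median was -0.049, beside -0.012 over all tested probe sets, and nothing is read from the signs. The largest was that of AT3G08910 at -0.13 (SE 0.071, limma adjusted p = 0.59), followed by ATJ1, a mitochondrial J protein, at -0.063 (SE 0.062, limma adjusted p = 0.78). The groups of AT3G08910 did not overlap, with 35S:PCO1 lower: its highest 35S:PCO1 array was at 5.77 and its lowest wild-type array at 5.79.

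Other co-chaperones of HSP70 or HSP90 gave 5 measured genes of 23, with log2 changes from -0.22 to 0.31. AT4G02450, which encodes a p23 co-chaperone of HSP90, had log2 signals of 8.02, 7.31 and 8.05 in wild type and 8.04, 8.16 and 8.11 in 35S:PCO1. Its change of 0.31 (SE 0.17, limma adjusted p = 0.59) goes with the low value on wild type replicate 2, whose part in the change was not tested. SQN (AT2G15790), a cyclophilin that associates with HSP90, had log2 signals of 3.81, 3.91 and 4.04 in wild type and 4.26, 4.08 and 4.21 in 35S:PCO1. The groups did not overlap, and the change of 0.26 (SE 0.078) was not called by limma (adjusted p = 0.31). A second, dimmer probe set of SQN had a log2 change of -0.0046 (SE 0.068, limma adjusted p = 0.99). The estimates for this gene thus differ and neither was called. The dimmer probe set had a mean signal of 3.12, near the lower end of the scale, which limits what it can show.

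Small heat shock proteins bind unfolding proteins without ATP and are among the genes most strongly induced by heat. Of 19 listed 11 were measured, with log2 changes from -0.21 to 0.096 and a median of -0.010. In none of the 11 did the groups separate, beside 16.2% of all tested probe sets, so with 11 genes this says little. Several of the 11 were dim, AT1G52560 and AT5G47600 among them. The compressed scale limits what such probe sets can show, so a difference in these genes is not excluded. AT1G54050 had the largest change at -0.21 (SE 0.10, limma adjusted p = 0.52), and ATHSP22.0, which resides in the endoplasmic reticulum, had 0.096 (SE 0.093, limma adjusted p = 0.78). HSA32, a heat-stress protein that works with HSP101 in the memory of earlier heat, was the 1 measured gene of 7 other heat-response genes and had a log2 change of 0.10 (SE 0.089, limma adjusted p = 0.75).

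Chaperones of organelles were measured in few cases. Cpn60beta2, a chaperonin subunit of the chloroplast and 1 of 7 listed chaperonins, had a log2 change of 0.25 (SE 0.19, limma adjusted p = 0.71). CLPB2, a relative of HSP101 and 1 of 6 listed Clp genes, had -0.037 (SE 0.060, limma adjusted p = 0.89) near the lower end of the scale. Of 8 genes of folding in the endoplasmic reticulum 3 were measured; the calnexin gene AT5G07340 had a log2 change of -0.13 (SE 0.091, limma adjusted p = 0.67), and BZIP60, a transcription factor of the unfolded protein response, had -0.098 (SE 0.075, limma adjusted p = 0.71).

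**Figure D4:**
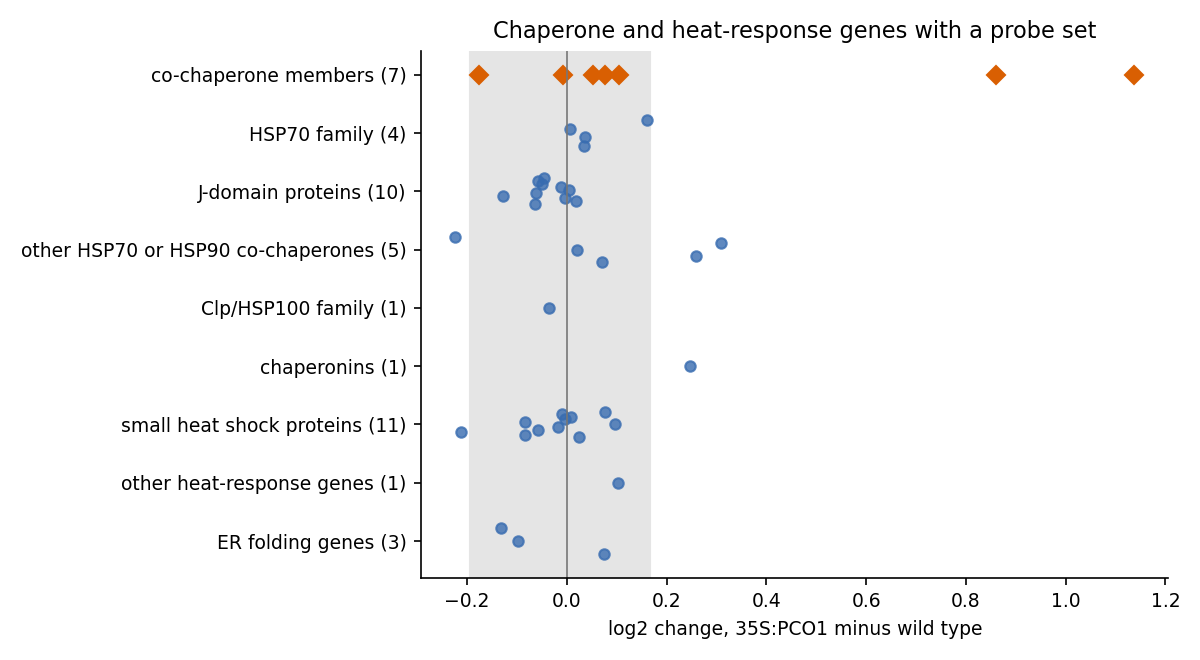
Log2 change, 35S:PCO1 minus wild type, of the 7 measured co-chaperone members (diamonds) and of the 36 measured genes of the chaperone and heat-response lists (circles), 1 row per list with its number of measured genes in brackets; the grey band runs from the 5th to the 95th percentile of all tested probe sets. The circles lie between -0.22 and 0.31, and Fes1A and Hop3, which were chosen for their change, lie to the right of all of them.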

How the data were processed

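Total RNA was hybridised to 1-colour Affymetrix Arabidopsis arrays, per the labels' protocols. The authors deposited log2 values computed by RMA, per the submitters' processing notes; version and probe definition are not given in the sources used here. Groups and replicate numbers came from the sample titles. Of 22810 probe sets, 64 controls were left out. Probe sets were named through the platform annotation and gene numbers of the TAIR10.1 gene table: 13513 have 1 gene (13436 of them with a locus, covering 13286 loci), 503 several, and 8730 are unlisted. A locus was represented by its one-gene probe set with the highest mean.

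Differences between genotypes were fitted in limma 3.58.1 (lmFit, then eBayes; R 4.3.3), 2-sided, without covariates, with Benjamini-Hochberg adjustment over the 22746 tested probe sets and a call at an adjusted p under 0.05. The fit was tested on simulated data. The members and the lists were chosen with earlier results of these data known, and the classes heat-inducible and constitutive come from general knowledge of these genes, not from these arrays. Genes named are all members, the called genes of each list (up to 4) or, without a call, the 2 with the largest change, and the 3 most correlated loci for Fes1A and for Hop3. The look at neighbouring genes was added after the data were seen. The number of arrays limits the precision.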

Additional observations from a re-analysis of the deposited data

How the results depend on the processing

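Fes1A kept a log2 change between 0.99 and 1.25 and Hop3 one between 0.72 and 1.00 over the alternatives run: the replicate number as a block, centring, repeated quantile normalization, trend and robust eBayes, array weights, a filter at the 40th percentile of mean signal (which removes Hop3 and ROF2), averaging the probe sets of each locus, less specific probe sets left out, and each array left out in turn. Fes1A and Hop3 were chosen for this change on the same arrays, so a kept change or call supports nothing further. The number of members called, which was 2, was 1 with the filter and 1 at an adjusted p under 0.01. With 1 array left out it was between 0 and 2. It was 1 (Fes1A, with Hop3 lost) without wild type replicate 2 or 3. It was 0 without wild type replicate 1 and without 35S:PCO1 replicate 1, where limma called 23 and 24 of all probe sets, in place of 60. The other fits with 1 array left out called between 33 and 60 of all probe sets. With the replicate number as a block it was 0, and 26 of all probe sets were called. The numbers gave no sign of pairing the arrays: deviations of same-numbered arrays correlated at -0.059, -0.22 and -0.26. No wild-type array correlated best with its own number. So few values, centred within groups and thus dependent, cannot decide whether the numbers pair the arrays. Array weights called 255 of all probe sets and the same number of members, 2. Members with changes near 0 changed sign: Hop1 was 0.012 with repeated quantile normalization, 0.083 with array weights, and between -0.064 and 0.057 with 1 array left out (0.057 without wild type replicate 2, 0.031 and 0.0064 without 35S:PCO1 replicates 2 and 3), and Hop2 ran from -0.036 (without wild type replicate 1) to 0.17. With 1 array left out Fes1B ran from 0.041 to 0.11, Fes1C from -0.27 to -0.12 and ROF2 from 0.031 to 0.19, and ROF2 was 0.23 with array weights. None of the 5 members not chosen by value and none of the 36 list genes was called under any of these alternatives, nor at an adjusted p under 0.1 in the fit to all arrays. The cause of these dependences was not tested.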
